A study of Mus musculus with 15 samples.

Results

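Expression of the chemokine genes Ccl3, Ccl4 and Ccl5 and of the chemokine receptor gene Cxcr3 was examined in splenic regulatory T cells (Treg) with altered Notch signalling. The 4 genes were taken by name from a table of 19752 genes, each read by 1 transcript cluster that names no other gene. They had been picked with results from these arrays already known, so their levels and differences are given as a description, without p-values.

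The study asked how Notch1 activity and RBPJ, the DNA-binding partner of the active Notch fragment, shape the transcriptome of Treg. N1c_RBPJdel cells carried Foxp3EGFPCre, R26N1c/N1c and RBPJ∆/∆ (3 arrays), N1c cells carried Foxp3EGFPCre and R26N1c/N1c (4 arrays), RBPJdel cells carried Foxp3EGFPCre and RBPJ∆/∆ (4 arrays), and control cells carried Foxp3EGFPCre alone (4 arrays). The Foxp3EGFPCre allele, which makes green fluorescent protein and Cre where Foxp3 is on, was thus present in every group, and R26N1c yields the active intracellular part of Notch1 once Cre has acted. All mice were 6-week-old males. Spleen cells were sorted as CD4 T cells with the green Foxp3 reporter, with CD8, B cell and myeloid lineages gated out, and each array held RNA of cells pooled from several animals. The standard error (SE) therefore measures the spread between pools, and the number of arrays limits the precision. A FACSAria sorted the N1c_RBPJdel cells and a MoFlo the other 3 groups, so sorter and genotype cannot be told apart in any comparison of N1c_RBPJdel cells.

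CCL3, CCL4 and CCL5 are small secreted proteins that attract leukocytes through shared receptors. Activated T cells and natural killer (NK) cells make them, and CCL5 in particular is typical of antigen-experienced T cells. CXCR3 binds the interferon-induced chemokines CXCL9, CXCL10 and CXCL11, and it is carried by type 1 helper T cells and by the subset of Treg that expresses T-bet and enters type 1 inflamed tissue.

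Values are the deposited array intensities, group levels are geometric means, and a difference is that between 2 mean log2 values, given with its SE from limma and its 95% confidence interval. Array medians lay between 107.1 and 117.2, and any 2 arrays correlated at 0.974 to 0.997. Rbpj had a mean intensity of 209 in N1c_RBPJdel, 521 in N1c, 267 in RBPJdel and 497 in control cells, and it was called lower in RBPJdel than in control cells (limma adjusted p = 0.00213). Foxp3 lay at 4219.7, 4342, 5333 and 4979 in the same order and was not called in any comparison. In cell mixtures such as these, fewer cells of a type and less RNA per cell cannot be told apart.

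Ccl5 (transcript cluster 10389207, chromosome 11), the gene of the 4 with the widest range between groups, was highest in both groups that carried the RBPJ deletion and lowest in N1c cells. It had 2322, 3237 and 1963 in N1c_RBPJdel cells and 166, 318, 246 and 215 in N1c cells. In RBPJdel cells it had 1211, 1272, 1892 and 2828, against 533, 650.2, 469 and 551 in control cells. All N1c arrays lay below all control arrays, and all RBPJdel and N1c_RBPJdel arrays lay above them. N1c_RBPJdel and RBPJdel arrays overlapped, and they were the only neighbours in the order of group levels to do so. The group levels were 2453 in N1c_RBPJdel, 230 in N1c, 1694 in RBPJdel and 547 in control cells.

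Ccl5 was 3.10-fold higher in RBPJdel than in control cells, a log2 difference of 1.63 ± 0.24 (SE, n = 4 and 4; interval 1.12 to 2.14). In N1c cells it was lower than in control cells by a log2 difference of -1.25 ± 0.24 (n = 4 and 4; -1.76 to -0.74). The groups with a single change thus lay on opposite sides of the control arrays, which both comparisons share. In N1c_RBPJdel cells it was 10.7-fold higher than in N1c cells, a log2 difference of 3.42 ± 0.26 (n = 3 and 4; 2.87 to 3.96), and 4.48-fold higher than in control cells. Against RBPJdel cells, the log2 difference of N1c_RBPJdel cells was 0.53 ± 0.26, with an interval of -0.01 to 1.08 that takes in 0. The log2 effect of N1c with the RBPJ deletion, minus that without it, was 1.79 ± 0.35 (1.04 to 2.53).

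Cxcr3 (transcript cluster 10606058, chromosome X) was lowest in control cells and higher in each of the altered genotypes. It had 1346, 1871 and 1365 in N1c_RBPJdel cells and 633, 917, 588 and 878 in N1c cells. In RBPJdel cells it had 1011, 1056, 1417 and 1463, against 534, 496, 498 and 567 in control cells. No array of any altered genotype reached down to the control arrays, although the lowest N1c array and the highest control array differed by only 1.04-fold. N1c_RBPJdel and RBPJdel arrays overlapped, while N1c arrays lay below both. The group levels were 1509 in N1c_RBPJdel, 739.9 in N1c, 1219 in RBPJdel and 523 in control cells.

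Cxcr3 was 2.33-fold higher in RBPJdel than in control cells (log2 difference 1.22 ± 0.16, n = 4 and 4; 0.88 to 1.56). It was 1.41-fold higher in N1c than in control cells (0.50 ± 0.16, n = 4 and 4; 0.16 to 0.84). Unlike Ccl5, the receptor gene was therefore higher than in control cells with either change alone. In N1c_RBPJdel cells it was 2.04-fold higher than in N1c cells (1.03 ± 0.17, n = 3 and 4; 0.66 to 1.39) and 2.89-fold higher than in control cells (1.53 ± 0.17, n = 3 and 4). Against RBPJdel cells the log2 difference of N1c_RBPJdel cells was 0.31 ± 0.17, with an interval of -0.06 to 0.67. The effect of N1c with the deletion minus that without it was -0.19 ± 0.24 on the log2 scale (-0.69 to 0.31).

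**Figure D1:**
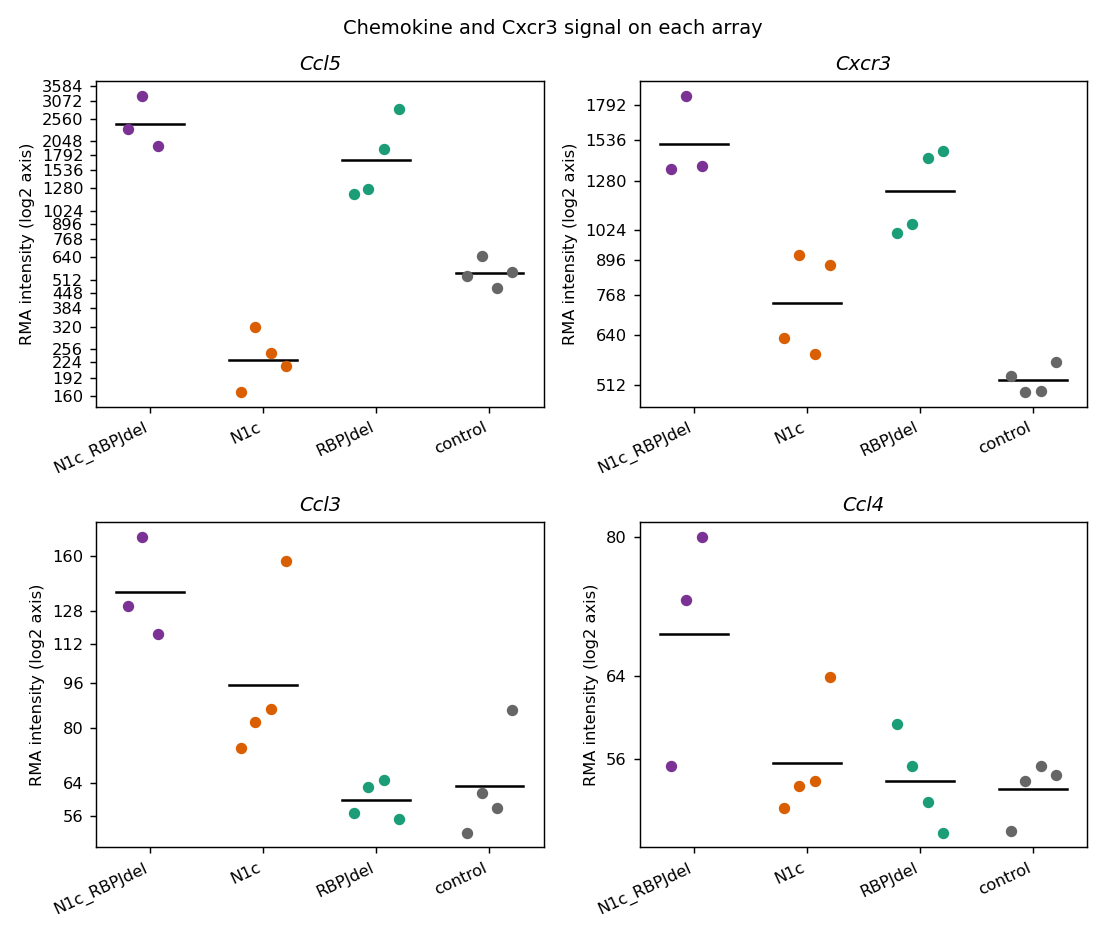
Intensity of Ccl5, Cxcr3, Ccl3 and Ccl4 on each of the 15 arrays, with a log2 vertical axis in each panel. Points are arrays and bars are geometric means of the group. All Ccl5 points of N1c cells lie below those of control cells and all points of both deletion groups above them, while every Cxcr3 point of an altered genotype lies above the control points.

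The window around the start of Cxcr3 is shown because the gene differed between cells with and without the RBPJ deletion and the window holds the letters that RBPJ is known to bind. It was thus picked with its motif match seen, and whether RBPJ acts on Cxcr3 directly was not tested. RefSeq promoter windows (GRCm38.p6, 250 bases before to 50 after the start) were matched for 2 of the 4 genes, Cxcr3 and Ccl3. The Cxcr3 window, 300 bases of the minus strand at chrX:101734098-101734397, is written with 2 motif matches in capitals.
Cxcr3: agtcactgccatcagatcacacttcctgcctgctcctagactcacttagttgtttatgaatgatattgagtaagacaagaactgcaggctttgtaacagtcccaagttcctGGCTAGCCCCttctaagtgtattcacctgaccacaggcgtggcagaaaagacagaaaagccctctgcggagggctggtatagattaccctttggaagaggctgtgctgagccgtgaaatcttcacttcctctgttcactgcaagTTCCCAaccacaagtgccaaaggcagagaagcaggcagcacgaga
The second run of capitals is the RBPJ motif TGGGAA read on the opposite strand, at bases 6 to 11 after the start. The first is a match to the general NF-kappaB motif, also on the opposite strand, at bases -139 to -130, and the 2 matches do not overlap. The T-box motif GGTGTGA and the interferon-related GAS motif TTCNNNGAA were not found on either strand. Of 32851 windows in the table, 25.6% hold the RBPJ letters, 50.8% the NF-kappaB letters, 3.98% the T-box letters and 8.3% the GAS letters. The window of Ccl3 (chr11:83649329-83649628, minus strand) held none of the 4 motifs. These matches describe letters and show no binding.

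Ccl3 (transcript cluster 10389231, chromosome 11), which encodes MIP-1 alpha, showed another pattern and was dim, below the median of its array on 11 of 15 arrays. It had 131, 173 and 117 in N1c_RBPJdel cells and 73.7, 81.9, 86.1 and 157 in N1c cells. In RBPJdel cells it had 56.6, 62.9, 64.7 and 55.3, against 52.3, 61.3, 57.7 and 85.9 in control cells. The 2 groups with active Notch1 were the higher ones, and the 2 without it overlapped, as did N1c with control through control 5. N1c_RBPJdel arrays lay above all RBPJdel and control arrays and overlapped with N1c arrays through N1c 5. The group levels were 138 in N1c_RBPJdel, 95.1 in N1c, 59.8 in RBPJdel and 63.1 in control cells.

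Ccl3 was 2.31-fold higher in N1c_RBPJdel than in RBPJdel cells (log2 difference 1.21 ± 0.22, n = 3 and 4; 0.75 to 1.67) and 2.19-fold higher than in control cells (1.13 ± 0.22, n = 3 and 4; 0.67 to 1.59). In N1c cells it was higher than in control cells by 0.59 ± 0.20 (n = 4 and 4; 0.16 to 1.02), and the arrays overlapped. With the replicate number as a block this difference was 0.62 ± 0.13, which passed the test over all genes. The difference without the block did not pass it. In RBPJdel cells the difference from control cells was -0.08 ± 0.20 (-0.50 to 0.35). In the comparison where Ccl5 and Cxcr3 were higher, the difference of Ccl3 was thus within the spread between arrays. The arrays numbered 5 had the highest Ccl3 in both N1c and control cells. The difference between these groups was 0.35 without N1c 5, 0.74 without control 5 and 0.50 without both.

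Ccl4 (transcript cluster 10379721, chromosome 11), which encodes MIP-1 beta, was dimmer still relative to its arrays, below the array median on 15 of 15. It had 55.3, 72.3 and 80.1 in N1c_RBPJdel cells and 51.7, 53.6, 54.0 and 63.9 in N1c cells. In RBPJdel cells it had 59.2, 55.3, 52.2 and 49.7, against 49.8, 54.0, 55.3 and 54.5 in control cells. N1c_RBPJdel 2 and 3 lay above every other array, and N1c_RBPJdel 1 lay among those of the other groups. The difference between N1c_RBPJdel and control cells was 0.36 ± 0.12 (n = 3 and 4; 0.11 to 0.61), and it was 0.51 without N1c_RBPJdel 1. Between the other groups the differences were 0.02 ± 0.11 for RBPJdel against control and 0.06 ± 0.11 for N1c against control. At this signal, a change of Ccl4 in these 2 groups was not detectable beyond the spread between arrays. The 10th percentile of the intensities on an array lay at 27.0 to 32.2 in N1c_RBPJdel cells, against 25.5 to 28.4 in control cells. After quantile normalization, which removes that difference, Ccl4 in N1c_RBPJdel against control cells was at 0.26.

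**Figure D2:**
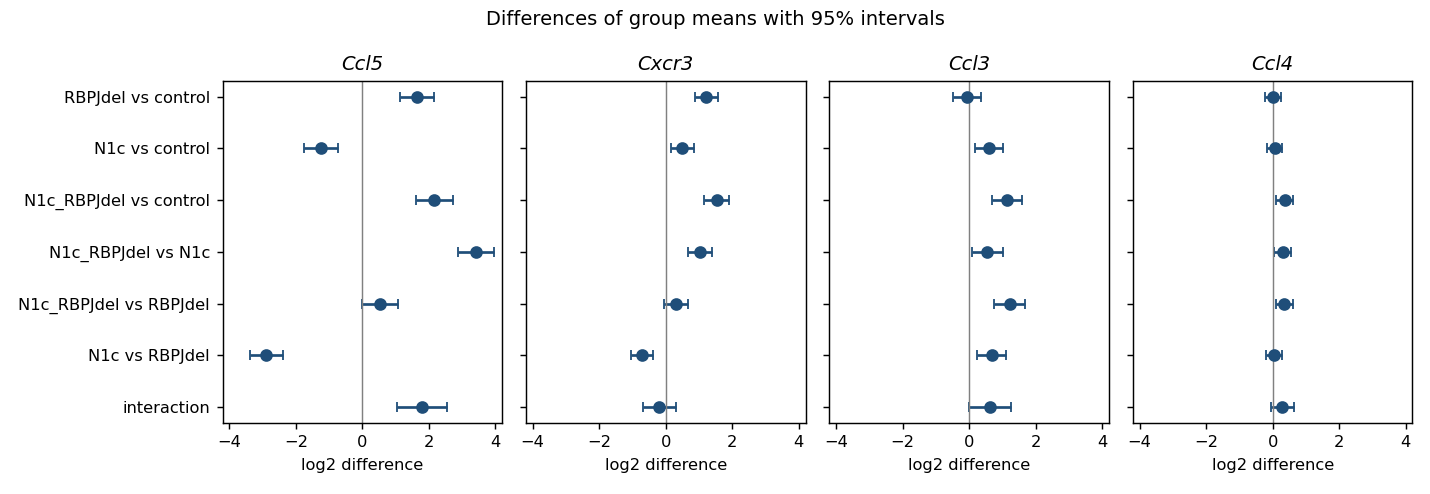
Log2 differences of Ccl5, Cxcr3, Ccl3 and Ccl4 in 6 comparisons of 2 groups and in the interaction, with 95% confidence intervals from the limma fit. Ccl5 spans from -2.88 for N1c against RBPJdel to 3.42 for N1c_RBPJdel against N1c, while Ccl4 stays within 0.36 of 0.

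Read against all genes, the test over the whole table (limma, Benjamini-Hochberg adjusted p under 0.05) passed 2 of the 4 genes in RBPJdel against control, Ccl5 and Cxcr3, both higher, where it passed 0.111% of all genes. It passed Ccl5 alone, lower, in N1c against control, where 1.65% of all genes passed (326 genes). With the replicate number as a block the test passed 494 genes there, Ccl5 and also Ccl3 (higher) among them. In N1c_RBPJdel against N1c it passed Ccl5 and Cxcr3, higher, beside 9.23% of all genes. It passed Ccl3 alone in N1c_RBPJdel against RBPJdel, beside 2.29%. In N1c_RBPJdel against control it passed Ccl3, Ccl5 and Cxcr3, all higher, beside 8.9%. It passed Ccl5 and Cxcr3, lower, in N1c against RBPJdel, beside 2.5%, and Ccl5 alone in the interaction, beside 0.84%. Nothing is read from these counts, since the genes were picked on the same contrasts.

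Arrays did not overlap for 2 of the 4 genes in RBPJdel against control, where the same held for 5.89% of all genes. They did not overlap for 2 in N1c against control (5.73% of all genes), 2 in N1c_RBPJdel against N1c (16.4%), 1 in N1c_RBPJdel against RBPJdel (15.8%), 3 in N1c_RBPJdel against control (18.7%) and 3 in N1c against RBPJdel (8.22%). The median difference of the 4 genes was 0.62 in RBPJdel against control, against 0.03 over all genes. It fell between Ccl5 (1.63) and Cxcr3 (1.22), which were higher, and Ccl3 (-0.08) and Ccl4 (0.02), which were not. In N1c against control the median was 0.28, against -0.01 over all genes, with Ccl5 lower (-1.25). Neither median is read as a shift of the 4 genes, which were picked on these contrasts. The call of Ccl5 in N1c against control was lost without both arrays numbered 5, and that of Cxcr3 in N1c against RBPJdel without N1c 1, N1c 4, RBPJdel 3 or RBPJdel 4 and with the 2 groups alone. The calls of Ccl5 and Cxcr3 in RBPJdel against control were kept under all 23 alternatives. Whether these calls were kept or lost is a description and no test, because the genes were picked on the same contrasts.

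Ccl5 and Cxcr3 also varied together inside the groups. After each group's mean was taken away, their log2 values correlated at r = 0.72 over the 15 arrays, and with the group means left in at 0.78. Among RBPJdel cells, for example, arrays 3 and 4 were the higher ones for both genes, and N1c_RBPJdel 2 was the highest array of its group for both. Control cells did not follow this, since control 3 had the highest Ccl5 and the lowest Cxcr3 of its group. Ccl3 and Cxcr3 followed each other less closely inside groups (r = 0.48), as did Ccl3 and Ccl4 (0.41). For Ccl3 and Ccl5 r was 0.12, for Ccl4 and Cxcr3 0.06 and for Ccl4 and Ccl5 -0.28. The arrays share pools of cells and total signal between genes, and these values carry no test. Without N1c_RBPJdel 2 the differences between N1c_RBPJdel and control cells were 1.96 for Ccl5, 1.37 for Cxcr3, 0.97 for Ccl3 and 0.32 for Ccl4.

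**Figure D3:**
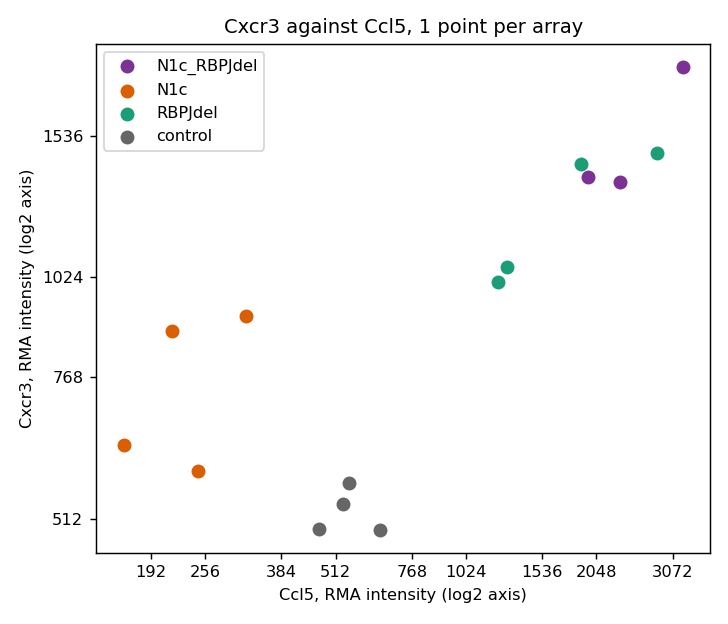
Cxcr3 intensity against Ccl5 intensity on the 15 arrays, both axes log2, coloured by genotype. N1c_RBPJdel and RBPJdel arrays share the upper right, N1c arrays lie at low Ccl5 and intermediate Cxcr3, and control arrays lie at the lowest Cxcr3.

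The genes whose log2 values ran most like those of Ccl5 over the 15 arrays were Fgl2 (r = 0.96), Ttc39c (0.94), Arrdc4 (0.93), Dtd1 (0.93) and Myadm (0.93). Fgl2 encodes a secreted fibrinogen-like protein known as a Treg effector. Its level was 334 in N1c_RBPJdel, 58.2 in N1c, 270.0 in RBPJdel and 151 in control cells, the same order as for Ccl5. For Cxcr3 the nearest were Tmprss13 (0.87), Tigit (0.87), Sema6d (0.85), Lgmn (0.85) and Tbx21 (0.84). Tigit, an inhibitory receptor gene, lay at 2205 in N1c_RBPJdel, 1110.1 in N1c, 1742 in RBPJdel and 1186 in control cells. Tbx21 encodes T-bet, the factor known to switch on Cxcr3 in T cells. It had 295, 453 and 264 in N1c_RBPJdel cells and 206, 216, 221 and 315 in N1c cells, and in RBPJdel cells 227, 286, 263 and 290.2, against 202, 184, 132 and 192 in control cells.

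Ccl3 was most like Zfp523 (0.91), Them5 (0.90), Svs6 (0.89), Il2 (0.89) and Rasl2-9 (0.89). Il2, the gene of the T cell growth factor that Treg normally keep silent, lay below the array medians, at 52.6 in N1c_RBPJdel, 42.1 in N1c, 34.6 in RBPJdel and 35.6 in control cells. Ccl4 was most like Catspere2 (0.93), Synpo2 (0.92), Sbspon (0.92), Il1rapl2 (0.91) and Tas2r121 (0.91). With group means taken away, r stayed between 0.81 and 0.94 for these 5 and lay between 0.19 and 0.75 for the 5 nearest to Ccl5. Svs6, Rasl2-9, Il1rapl2 and Tas2r121 were very dim, below the 10th percentile of the arrays in each group. Their levels in this order were 21.0, 18.1, 20.6 and 19.0 in N1c_RBPJdel and 16.9, 12.7, 14.4 and 15.4 in control cells. The 15 arrays fall into 4 groups, and these correlations carry no test.

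Ccl5, Ccl3 and Ccl4 sit in 1 chemokine cluster on chromosome 11, in the order Ccl5, Ccl9, Ccl6, Ccl3 and Ccl4 of the reference annotation. Ccl9 and Ccl6, which lie between Ccl5 and Ccl3, were not called in any comparison. Ccl9 differed by 0.11 in RBPJdel against control, where Ccl5 differed by 1.63, and by -0.02 in N1c_RBPJdel against N1c, where Ccl5 differed by 3.42. Ccl6 differed by -0.06 and 0.27 in these comparisons. Heatr9, the measured gene on the other side of Ccl5, differed by 0.23 and 0.21. Wfdc17, the next gene after Ccl4, was named after its values were seen. It was called higher in N1c_RBPJdel against N1c (0.73), RBPJdel (0.73) and control (0.65) and in the interaction (0.81). Its signal was dim, with a mean intensity of 34.9 over the arrays.

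**Figure D4:**
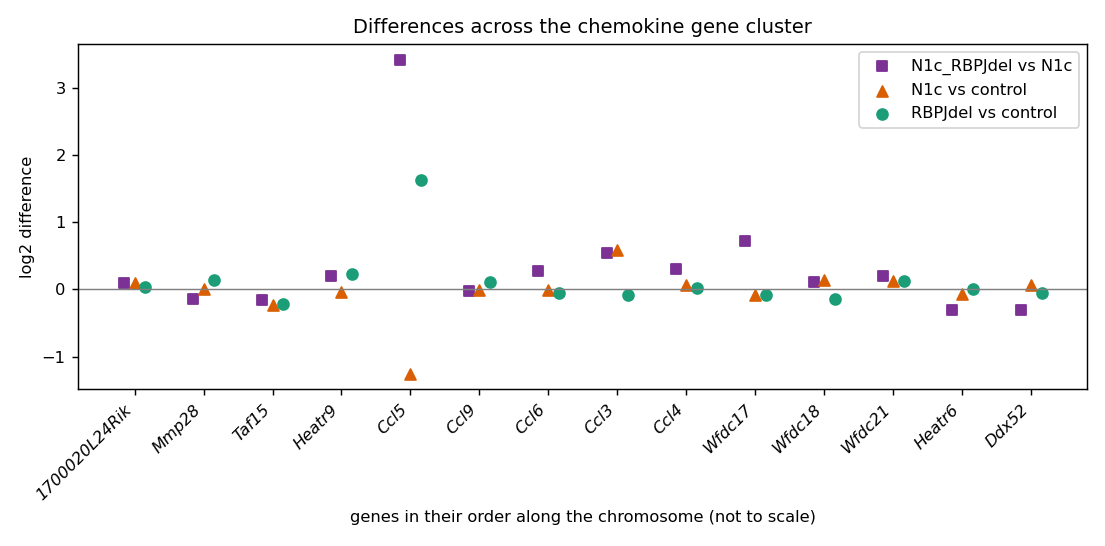
Log2 differences of the genes around Ccl5, Ccl3 and Ccl4 on chromosome 11, in the order of the reference annotation and not to scale of distance. Ccl5 stands at 1.63 in RBPJdel against control and at 3.42 in N1c_RBPJdel against N1c, while Ccl9 and Ccl6 next to it lie between -0.06 and 0.27.

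The receptors of these ligands examined here were Ccr1, Ccr3, Ackr1 and Ackr2. None of these 4 was called by limma in RBPJdel or N1c against control, beside 0.111% and 1.65% of all genes. Their median differences were 0.05 and 0.00, and 0 had an unadjusted limma p under 0.05 in either. Ccr3, best known from eosinophils, had 162, 303 and 197 in N1c_RBPJdel cells and 111, 93.6, 104 and 108 in N1c cells. It rose in N1c_RBPJdel against N1c cells by 1.04 ± 0.17 (n = 3 and 4; limma adjusted p = 0.00146) and against RBPJdel cells by 0.76 ± 0.17 (adjusted p = 0.0323, from 0.00994 to 0.0901 over the alternatives, with the call lost under 5 of 23, without RBPJdel 1, 2 or 3, with array weights and with the 2 groups alone). It was the only one of these 4 receptors called in N1c_RBPJdel against control cells (1.03, adjusted p = 0.00361). None of the 3 Cxcr3 ligand genes was called by limma in any comparison, where 0.111% to 9.23% of all genes were. At most 1 of these ligand genes had an unadjusted p under 0.05. Cxcl10, the brightest of them, had a level of 304 in N1c_RBPJdel, 315 in N1c, 193 in RBPJdel and 221 in control cells.

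Of 22 other chemokine genes, limma called none in RBPJdel against control, beside 0.111% of all genes. It called none in N1c against control either, beside 1.65% of all genes. None of the 22 had an unadjusted p under 0.05 in these 2 comparisons. In N1c_RBPJdel cells Ccl12 was called higher against N1c (0.40, limma adjusted p = 0.0442), RBPJdel (0.48, adjusted p = 0.043) and control cells (0.52, adjusted p = 0.0149), at a dim level of 36.6, 27.7, 26.1 and 25.4 in N1c_RBPJdel, N1c, RBPJdel and control cells. Ccl8 was called higher against control cells (0.39, adjusted p = 0.0485). The calls of Ccl12 were lost under 13 of 22 alternatives against N1c, 13 of 22 against RBPJdel and 3 of 22 against control, and that of Ccl8 under 16 of 22. All of them were lost after quantile normalization, with differences of 0.21, 0.34 and 0.35 for Ccl12 in the same order and 0.19 for Ccl8. Other chemokine receptors divided. Of 16, limma called none in RBPJdel against control, beside 0.111% of all genes (1 at an unadjusted p under 0.05). In N1c against control, where 1.65% of all genes were called, Ccr4 (0.74) and Cxcr5 (1.37) rose and Ccr6 fell by 0.81. Cxcr5 is the receptor that draws cells to B cell follicles. The call of Ccr4 was lost without both arrays numbered 5 (adjusted p = 0.0553). In N1c_RBPJdel against N1c cells Ccr2 (0.90 ± 0.19, adjusted p = 0.00686), Ccr6 (0.86 ± 0.14, adjusted p = 0.00102) and Ccr8 (0.96 ± 0.20, adjusted p = 0.00713) rose and none fell. Of all genes, 9.23% were called there. The call of Ccr2 was lost with array weights (adjusted p = 0.0753) and that of Ccr8 with the 2 groups alone (adjusted p = 0.0628).

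The order of Ccr6 levels thus shared with Ccl5 its lowest place in N1c cells, at 326 in N1c_RBPJdel, 179 in N1c, 284 in RBPJdel and 314 in control cells. Unlike Ccl5, Ccr6 was not called in RBPJdel against control. Cxcr5 had its highest level in N1c cells, where Ccl5 had its lowest, at 307, 467, 190.4 and 181 in the same order.

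**Figure D5:**
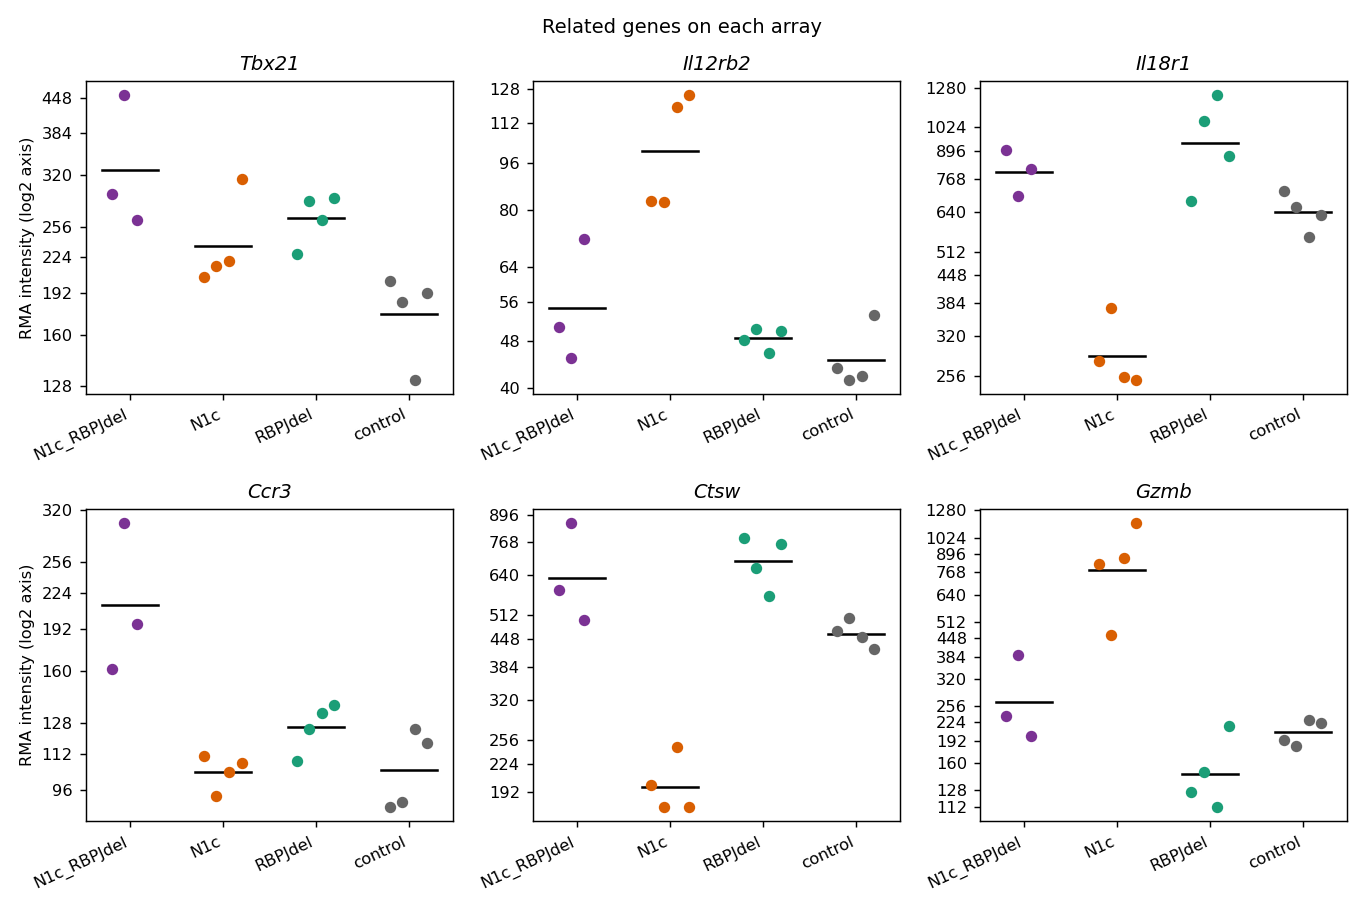
Intensity of related genes on each of the 15 arrays, with log2 vertical axes, points for arrays and bars for geometric means of the group. Ctsw and Il18r1 are lowest in all N1c arrays, as Ccl5 is, while Tbx21 is lowest in the control arrays, as Cxcr3 is.

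Regulators of the type 1 programme, which governs Cxcr3 and Ccl5 in conventional T cells, were not called in RBPJdel against control (0 of 21, with 0.111% of all genes called and a median difference of 0.10), and 6 of them had an unadjusted limma p under 0.05. Tbx21 differed there by 0.60 ± 0.18 (n = 4 and 4; limma adjusted p = 0.470). It rose in N1c_RBPJdel against control cells by 0.90 ± 0.19 (n = 3 and 4; adjusted p = 0.0106), together with Id2 (0.73), Prdm1 (0.52) and Il18rap, while Klf13 fell. The call of Prdm1 was lost without control 3 (0.47, adjusted p = 0.0524), and those of Prdm1 and Tbx21 with the 2 groups alone (adjusted p = 0.052 and 0.0511). In N1c against control 3 rose and 2 fell, beside 1.65% of all genes called. Il12rb2, a subunit of the interleukin 12 receptor, rose by 1.17 ± 0.16 (adjusted p = 0.000251) and Il18r1, a subunit of the interleukin 18 receptor, fell by 1.16 ± 0.17 (adjusted p = 0.00047).

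Il18r1 shared with Ccl5 its lowest place in N1c cells. It had 697 to 901 in N1c_RBPJdel cells, 250.4 to 373 in N1c cells and 678 to 1226 in RBPJdel cells, against 556 to 718 in control cells. Unlike Ccl5, it overlapped with control cells in both deletion groups and was called against control in neither. It rose in N1c_RBPJdel against N1c cells by 1.49 ± 0.18 (n = 3 and 4; limma adjusted p = 5.46e-05). Il12rb2 ran the other way and fell there by 0.88 ± 0.17 (adjusted p = 0.00405). NF-kappaB and NFAT factors drive chemokine genes after T cell receptor signals. The list of 10 measured genes also held the IkappaB-family genes Nfkbia, Nfkbid and Nfkbiz. Nfatc3 in N1c_RBPJdel against control was the only one called (-0.31, limma adjusted p = 0.03), beside 8.9% of all genes. That call was lost without N1c_RBPJdel 1, control 2 or control 3, after quantile normalization and with the 2 groups alone.

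Cytotoxic genes are often made by the same cells as Ccl3, Ccl4 and Ccl5. Limma called 0 of 12 in RBPJdel against control, beside 0.111% of all genes. Of these 12, 2 had an unadjusted p under 0.05, and the median difference was 0.02. In N1c against control, where 1.65% of all genes were called, 5 rose, among them Fasl (1.52 ± 0.16, limma adjusted p = 1.38e-05) and Gzmb (1.93 ± 0.25, adjusted p = 0.000227). Ctsw, a cathepsin gene of T and NK cells, fell by 1.22 ± 0.15 (adjusted p = 0.000139). Gzmb, a granule protease gene, thus rose where Ccl5 was lower. In N1c_RBPJdel against N1c cells Ctsw rose by 1.67 ± 0.17 (adjusted p = 6.84e-06) and Klrg1, an inhibitory receptor gene of effector cells, by 0.99 ± 0.17 (adjusted p = 0.00163), while Fasl fell by 1.43 ± 0.17 (adjusted p = 5.04e-05). Ctsw had 498, 589 and 856 in N1c_RBPJdel cells and 176 to 247 in N1c cells, and 571 to 788 in RBPJdel cells, against 424 to 504 in control cells.

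Notch target genes set the frame for these comparisons. Of 12 measured, 6 rose and 1 fell in N1c against control and 5 fell in N1c_RBPJdel against N1c, while Dtx1 alone was called in RBPJdel against control (-2.12, limma adjusted p = 0.000116). Over all 100 measured related genes, 1% were called in RBPJdel against control (0.111% of all genes), 21% in N1c against control (1.65%) and 22% in N1c_RBPJdel against N1c (9.23%). The share was 5% in N1c_RBPJdel against RBPJdel (2.29% of all genes), 18% in N1c_RBPJdel against control (8.9%), 20% in N1c against RBPJdel (2.5%) and 9% in the interaction (0.84%). The lists, which include the Notch targets, were chosen with earlier results of these data known. Nothing is therefore read from their shares beside those of all genes.

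Markers of other cells that make these chemokines were compared with the members. The summed intensity of 3 CD8 T cell markers was 669 to 721 in N1c_RBPJdel, 541 to 743 in N1c, 686 to 838 in RBPJdel and 582 to 771 in control cells. In the same order, Cd8a lay at 95.9, 126, 138 and 105 and Cd8b1, the brightest, at 553, 444, 584 and 513. Crtam lay at 47.1, 39.5, 40.9 and 42.2. That of 6 of 7 NK cell markers was 340 to 398 in N1c_RBPJdel, 264 to 347 in N1c, 281 to 360 in RBPJdel and 272 to 364 in control cells. Ncr1, which defines NK cells, lay at 21.9, 20.9, 23.6 and 19.8 in the same order, below the 10th percentile of the arrays in each group. Of 44 markers of other cell types, limma called none in RBPJdel against control, beside 0.111% of all genes. The 1 marker with an unadjusted p under 0.05 there was of the CD8 T cell list. In N1c_RBPJdel against N1c, 2 of the 3 CD8 T cell markers had an unadjusted p under 0.05. Limma called none of the 44 in N1c against control, beside 1.65% of all genes (0 markers at an unadjusted p under 0.05). The part of CD8 T cells in the differences of Ccl5 was not tested.

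In N1c_RBPJdel cells some of these 44 markers were called. Limma called 8 against N1c, beside 9.23% of all genes, 5 against RBPJdel, beside 2.29%, and 5 against control, beside 8.9%. In the same order, 22, 15 and 22 had an unadjusted p under 0.05. The 10th percentile of the arrays was also higher, at 27.0 to 32.2 in N1c_RBPJdel against 25.5 to 28.4 in control cells. Its bearing on the dim markers was not tested. S100a9 of neutrophils, Cd79a and Ms4a1 of B cells and Car1 and Slc4a1 of red cell precursors were called higher against each of the other 3 groups. Markers of red cell precursors summed to 1139, 633 and 368 on N1c_RBPJdel 1, 2 and 3, and to 207 to 255 in N1c, 226 to 278 in RBPJdel and 213 to 256 in control cells (3 of 6 measured). B cell markers summed to 581 to 915 in N1c_RBPJdel, 488 to 533 in N1c, 610 to 736 in RBPJdel and 529 to 606 in control cells (5 of 6 measured). Neutrophil markers summed to 415 to 442 in N1c_RBPJdel, 279 to 371 in N1c, 311 to 360 in RBPJdel and 295 to 319 in control cells. Myeloid markers, which belong to cells that make Ccl3 and Ccl4, summed to 413 to 585 in N1c_RBPJdel, 420 to 627 in N1c, 393 to 445 in RBPJdel and 385 to 625 in control cells (7 of 8 measured). In N1c_RBPJdel against N1c their median difference was 0.185, and Lyz2 alone of them was called, higher (96.5 against 51.0). Cd68, the brightest of them, lay lower there (121 against 210), as did Itgam. The part of these other cells in the differences of Ccl3, Ccl4 and Ccl5 in N1c_RBPJdel cells was not tested.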

How the data were processed

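Sorted splenic Treg were profiled on whole-transcript mouse gene arrays from Affymetrix. Per the submitters' processing notes, the authors turned probe signals into intensity values by RMA (Affymetrix Power Tools). The sources used here name no version, genome build or filter. The deposited values run from 5.61 to 18029.7, a linear intensity scale, and were converted to log2 here. Features naming 1 gene were kept (21425 of 24922), with the brightest of several, which left 19752 genes on 15 arrays, and none was removed for low signal. limma 3.58.1 in R 4.3.3 fitted 1 mean per group to all arrays (11 residual and 6.15 prior degrees of freedom), in 7 comparisons. The p-values are two-sided, Benjamini-Hochberg adjusted over all genes, with a threshold of 0.05. The fit was tested on simulated data.

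The members and lists were chosen with earlier results of these data known. Named genes were the members, Foxp3, Rbpj and Notch1, up to 3 of smallest p per list and comparison among those called, and the 5 genes most correlated with each member. Other genes were named after their values were seen: Ccr1, Ackr1, Ackr2, Cxcl10, Ccl9, Ccl6, Heatr9, Wfdc17, Klf13, Il18rap in N1c_RBPJdel against control, and the cell markers. Notch1 was not called in any comparison. Residuals of arrays with the same number correlated at 0.341 to 0.497 in N1c and control, which were taken as paired. Other groups were not, as their lowest such values were 0.081 (N1c and RBPJdel) and below. Some arrays with different numbers correlated too, as N1c 1 and control 2 did at 0.371. Alternatives were normalization, low-value offset, array weights, a replicate block, groups alone and leaving out arrays.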

Additional observations from a re-analysis of the deposited data

Results flagged for a closer look

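The following genes are given because the effect of N1c with the RBPJ deletion minus that without it passed the adjusted limma threshold. For Ccl5 this difference was 1.785 on the log2 scale, which is a description and no test, because the gene was picked on these contrasts. It lost the call without RBPJdel 2 and without both arrays numbered 5. For the receptor gene Ccr6 it was 1.006, for Ctsw 1.092 and for Klrg1 1.252, all in the direction of Ccl5. For Il12rb2 it was -0.995 and for Fasl -1.248, in the other direction, as it was for the Notch targets Hes1 (-2.989), Hey1 (-1.804) and Heyl (-2.429). The call of Il12rb2 was lost under 13 of 21 alternatives and that of Ctsw under 9 of 22. N1c_RBPJdel cells alone came from another sorter, which cannot be told apart from genotype here.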

How the results depend on the processing

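No called difference of a member changed sign under the alternatives, and the uncalled difference of Ccl3 in RBPJdel against control was 0.148 with the replicate block. Uncalled differences of Ccl4 also changed sign. Their lowest values were -0.027 in RBPJdel against control, -0.008 in N1c against control and -0.025 in N1c against RBPJdel. Ccl4 was the member whose differences moved by more than the spread between its arrays with 1 array left out, over 0.187 to 0.453 in N1c_RBPJdel against N1c, 0.228 to 0.495 against RBPJdel, 0.246 to 0.512 against control and 0.17 to 0.436 in the interaction, the highest value without N1c_RBPJdel 1 each time. Of the related genes, 5 were called in N1c_RBPJdel against RBPJdel. That count was 21 with the replicate block over all groups, 3 with array weights, 1 with the groups alone, 10 without both arrays numbered 5 and 2 to 11 with 1 array left out. In N1c_RBPJdel against control it was 18, then 33 with the block, 7 with the groups alone and 8 to 19 with 1 array left out. In RBPJdel against control it was 1, and 3 with array weights. Over all genes, the lowest and highest counts called under the alternatives were 76 and 2107 in N1c_RBPJdel against RBPJdel (452 as reported), 406 and 3767 in N1c_RBPJdel against control (1757), 561 and 3699 in N1c_RBPJdel against N1c (1823), 101 and 632 in the interaction (166), 217 and 733 in N1c against control (326), 332 and 1017 in N1c against RBPJdel (494) and 17 and 189 in RBPJdel against control (22). N1c and control were the only groups taken as paired, and elsewhere the block ties arrays that were not. Some of those also correlated, as RBPJdel 4 did with control 4 (0.417) and with N1c 4 (0.457), while others of the same number did not. The block added calls of Ccl3 in N1c against control and in N1c_RBPJdel against N1c and of Ccl4 in N1c_RBPJdel against control, and it ended no call of a member. In the paired arrays of N1c and control alone Ccl3 differed by 0.699. The cause of these shifts was not tested. Dim signal limits Ccl3 and Ccl4.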
